A study of Homo sapiens with 8 samples.

Results

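The collagen chain genes are the human genes for the protein chains that assemble into collagens. A list of 37 such genes was matched by symbol, through the Ensembl gene IDs, to the 63677 genes of the count tables, and all 37 were found. They comprise 10 fibrillar chains, the 6 basement membrane type IV chains, 4 transmembrane chains, 7 fibril-associated chains, the 3 main chains of type VI, 2 short-chain network chains, 2 multiplexins, the anchoring fibril chain COL7A1, and 2 others (COL26A1 and COL28A1). The matching rule uses no measured value, but the list was drawn up with earlier results of these data known. It leaves out 7 other collagen genes (COL6A5, COL6A6, COL9A1, COL10A1, COL19A1, COL20A1 and COL24A1). Of these 7, 0 had enough counts to be tested in either comparison.

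The study measured PC9, an established line of human lung adenocarcinoma cells, by RNA-seq in 8 libraries that form 4 groups of 2. PC9 parental cells and PC9-BrM3, a subline the study examines for brain metastasis, were grown untransduced for 48 h before harvest. The shNTC and shHSF1 groups are both PC9-BrM3 cells that received a lentiviral Tet-pLKO hairpin (non-target control, or 1 hairpin against the heat shock transcription factor HSF1), 5 days of puromycin and 500 ng/mL doxycycline for 48 h. The study's comparisons are shHSF1 against shNTC, called the knockdown here, and PC9-BrM3 against PC9 parental, the subline comparison. With 1 hairpin and 1 subline, neither comparison can tell the named condition from what is particular to that hairpin or subline.

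Collagens are trimeric extracellular proteins whose chains wind into a triple helix in the endoplasmic reticulum, where prolyl and lysyl hydroxylases modify them and the chaperone SERPINH1 (HSP47) holds them folded. Fibrillar collagens form the tensile fibres of connective tissue, type IV collagens form the network of basement membranes on which epithelial cells rest, and transmembrane collagens span the cell surface. Epithelial cells such as those of the lung are known mainly for basement membrane and hemidesmosomal collagens, and fibroblasts for fibrillar ones.

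The 6 type IV genes lie as head-to-head pairs, and in each pair both genes start near one another on opposite strands. In the files' annotation (GRCh37) the COL4A3 and COL4A4 starts on chromosome 2 are 452 bases apart, and the COL4A5 and COL4A6 starts on chromosome X are 347 bases apart. COL4A1 and COL4A2 on chromosome 13 overlap in that annotation, with starts 1337 bases apart. The start windows below are shown because the type IV chains hold several of the largest differences reported here. Each is the 300-base RefSeq window of 1 gene (250 bases before to 50 after the start, build GRCh38.p14, 5′ to 3′ on the gene's own strand), and capitals mark the bases that also lie in the partner's window.
COL4A1: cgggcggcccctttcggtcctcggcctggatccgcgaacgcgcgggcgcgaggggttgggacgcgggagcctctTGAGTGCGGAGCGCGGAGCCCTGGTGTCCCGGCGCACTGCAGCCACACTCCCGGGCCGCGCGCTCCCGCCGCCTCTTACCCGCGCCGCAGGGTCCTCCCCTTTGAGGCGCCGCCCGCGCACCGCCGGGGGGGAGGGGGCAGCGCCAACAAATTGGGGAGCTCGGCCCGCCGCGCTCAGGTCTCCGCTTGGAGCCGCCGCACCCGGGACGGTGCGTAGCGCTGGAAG
COL4A3: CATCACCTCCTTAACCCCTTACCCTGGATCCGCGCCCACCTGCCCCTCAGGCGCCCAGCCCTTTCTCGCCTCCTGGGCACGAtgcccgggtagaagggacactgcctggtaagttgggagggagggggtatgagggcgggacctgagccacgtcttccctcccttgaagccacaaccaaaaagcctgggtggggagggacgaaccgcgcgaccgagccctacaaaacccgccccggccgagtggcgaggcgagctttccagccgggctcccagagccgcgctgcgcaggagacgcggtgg
COL4A5: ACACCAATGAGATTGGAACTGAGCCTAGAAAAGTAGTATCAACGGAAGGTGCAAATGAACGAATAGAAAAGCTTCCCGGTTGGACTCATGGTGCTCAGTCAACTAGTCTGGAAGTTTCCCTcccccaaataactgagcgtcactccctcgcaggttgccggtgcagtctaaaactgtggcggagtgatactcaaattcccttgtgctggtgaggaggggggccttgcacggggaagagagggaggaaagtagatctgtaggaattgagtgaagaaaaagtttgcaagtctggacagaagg
The COL4A1 window is chr13:110307108-110307407 on the minus strand and shares 226 bases with that of COL4A2. The COL4A3 window, chr2:227164374-227164673 on the plus strand, shares 82 bases with that of COL4A4, and the COL4A5 window, chrX:108439588-108439887 on the plus strand, shares 121 bases with that of COL4A6. Base composition separates them: G and C make up 76.7% of the COL4A1 window, 67.7% of the COL4A3 window and 49.3% of the COL4A5 window.

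RefSeq windows were found for 27 of the 37 genes (35 windows, since some genes have several starts) and searched on both strands. HSF1 is known to bind arrays of inverted GAA repeats, written here as GAANNTTCNNGAA, which reads TTCNNGAANNTTC on the other strand. This array was present in 0.490% of all 35116 windows and in 0 of the 35 collagen windows. The shorter GAANNTTC, which is part of the array, was in 11.4% of collagen windows against 6.77% of all windows, and was held by COL4A5, COL4A6, COL7A1 and COL28A1. The COL4A5 and COL4A6 match is 1 sequence in the bases that their windows share. The other half-array, TTCNNGAA, was in 0 collagen windows and 7.74% of all windows. GGGCGG, the box bound by SP1, was in 62.9% of collagen windows and 44.95% of all windows. Collagen windows were also richer in G and C, with a median of 66.3% against 58.7% in all windows. The part of base composition in the GGGCGG shares was not tested. These are matches of letters in a short window and not evidence of binding.

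Library totals ran from 33550140 to 56715336 counts, and a count of 0 allowed at most 0.0529 to 0.0894 CPM (the count scaled to a fixed library size), counting error only. By the file headers, lane 7 carried the untransduced libraries and lane 1 the transduced libraries, so tests were made within lanes. HSF1 stood at 178 and 184 normalized CPM in shNTC and at 15.6 and 13.5 in shHSF1. That is 12.2-fold lower, a log2 fold change of -3.61 ± 0.08 (SE throughout; edgeR adjusted p = 2.66e-08). In PC9 parental it was at 47.0 and 50.01 and in the PC9-BrM3 subline at 54.6 and 52.7 (edgeR adjusted p = 0.531). The labels do not say that the 2 libraries of a group came from separate cultures, and p-values reflect the spread between these libraries, which may be technical. The labels also do not say whether the transduced cells came from the same PC9-BrM3 stock as the untransduced ones. COL8A1 had 1 count in the untransduced PC9-BrM3 libraries and 420 in the shNTC libraries, which are PC9-BrM3 by label. Values of the subline comparison therefore describe the untransduced libraries labelled PC9-BrM3. The PC9-BrM3 pair differed most between its libraries (median absolute log2 difference per gene 0.358, against 0.116 to 0.128 in the other groups).

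Markers of epithelial cells were detected for 8 of 8 genes in every group. They summed to 3422 to 3732 CPM for PC9 parental and 4032 to 4473 for PC9-BrM3, and to 5742 to 5986 for shNTC and 7241 to 7556 for shHSF1. In the knockdown 4 of the 8 rose (KRT8, KRT18, CLDN4 and CDH1) and ELF3 fell, and 0 of 8 passed in the subline comparison. The 10 fibroblast markers summed to 0.460 to 0.823 CPM in PC9 parental cells, 0.507 to 0.632 in the PC9-BrM3 subline, 0.805 to 0.926 with shNTC and 0.925 to 1.26 with shHSF1. Of the fibroblast markers, TWIST1 had 18 to 38 counts per library. PDGFRA, PDGFRB, THY1, FAP and DPT had 0 to 3, and DCN, LUM, PRRX1 and TCF21 were at 0 in all 8 libraries. Also at 0 throughout were the endothelial PECAM1 and CLDN5, the leukocyte TYROBP and the glial MOG and SOX10. The fibroblast sums of shNTC and shHSF1 overlapped, and the 1 tested gene of that list, TWIST1, was not called. The 7 endothelial markers summed to 52.3 to 56.0 CPM for PC9 parental and 25.5 to 33.1 for PC9-BrM3, and to 38.4 to 45.2 for shNTC and 19.8 to 25.4 for shHSF1, nearly all of it CDH5. The 7 glial markers summed to 156 to 161, 107 to 114, 124 to 129 and 96.3 to 103 CPM in the same order, nearly all of it MBP, with 5 or 6 of the 7 genes under 1 CPM in each group. The 6 smooth muscle markers summed to 3.67 to 4.56, 3.63 to 4.06, 2.89 to 3.63 and 3.17 to 3.78 CPM, and the 7 leukocyte markers to 1.01 to 1.06, 2.55 to 2.56, 3.51 to 3.54 and 4.49 to 5.86 CPM.

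Of these lists, 4 low genes rose in the knockdown: CNN1 (1 and 2 counts in shNTC, 33 and 17 in shHSF1), CSPG4 (2 and 6, 22 and 11), VWF (15 and 15, 24 and 31) and ITGAM (77 and 74, 199 and 138). CDH5, MBP, RGS5 and LYZ fell. In the subline comparison ITGAM and SLC1A2 rose and CDH5 fell. The part of these markers in the collagen differences was not tested. In bulk RNA, fewer cells with a transcript and less transcript per cell cannot be told apart.

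Collagen counts made up 0.0325% and 0.0346% of all counts in PC9 parental cells, 0.0248% and 0.0259% in the PC9-BrM3 subline, 0.146% and 0.138% with shNTC, and 0.155% and 0.152% with shHSF1. The 2 lanes thus differed several-fold while groups within a lane were close. Levels of different genes were compared as RPKM, the CPM divided by the exonic length in kilobases that the files give. By mean RPKM over the 8 libraries the leading genes were COL6A1 (48.0), COL6A2 (37.2), COL4A5 (7.89), COL18A1 (7.12), COL7A1 (6.11) and COL13A1 (5.93).

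The order of classes differed between groups. In PC9 parental, type IV chains held 39.2% and 41.4% of summed collagen RPKM in the 2 libraries, and COL4A5 was the leading single gene at 12.9 and 14.9 RPKM. In PC9-BrM3 the type IV share was 17.0% and 12.9%, and type VI led with 48.2% and 59.7%, against 20.4% and 25.4% in PC9 parental. The groups did not overlap in either share.

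In shNTC type VI held 77.3% and 75.4% of collagen RPKM, and in shHSF1 63.6% and 67.5%. Type IV held 5.27% and 5.73% in shNTC and 8.44% and 6.94% in shHSF1. Fibrillar chains held 1.00% to 2.67% in every library, and transmembrane chains ran from 4.73% in an shNTC library to 11.0% in a PC9 parental library. Fibrillar transcripts were thus a small part of collagen RNA in all 4 groups, whatever their fold changes.

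**Figure D1:**
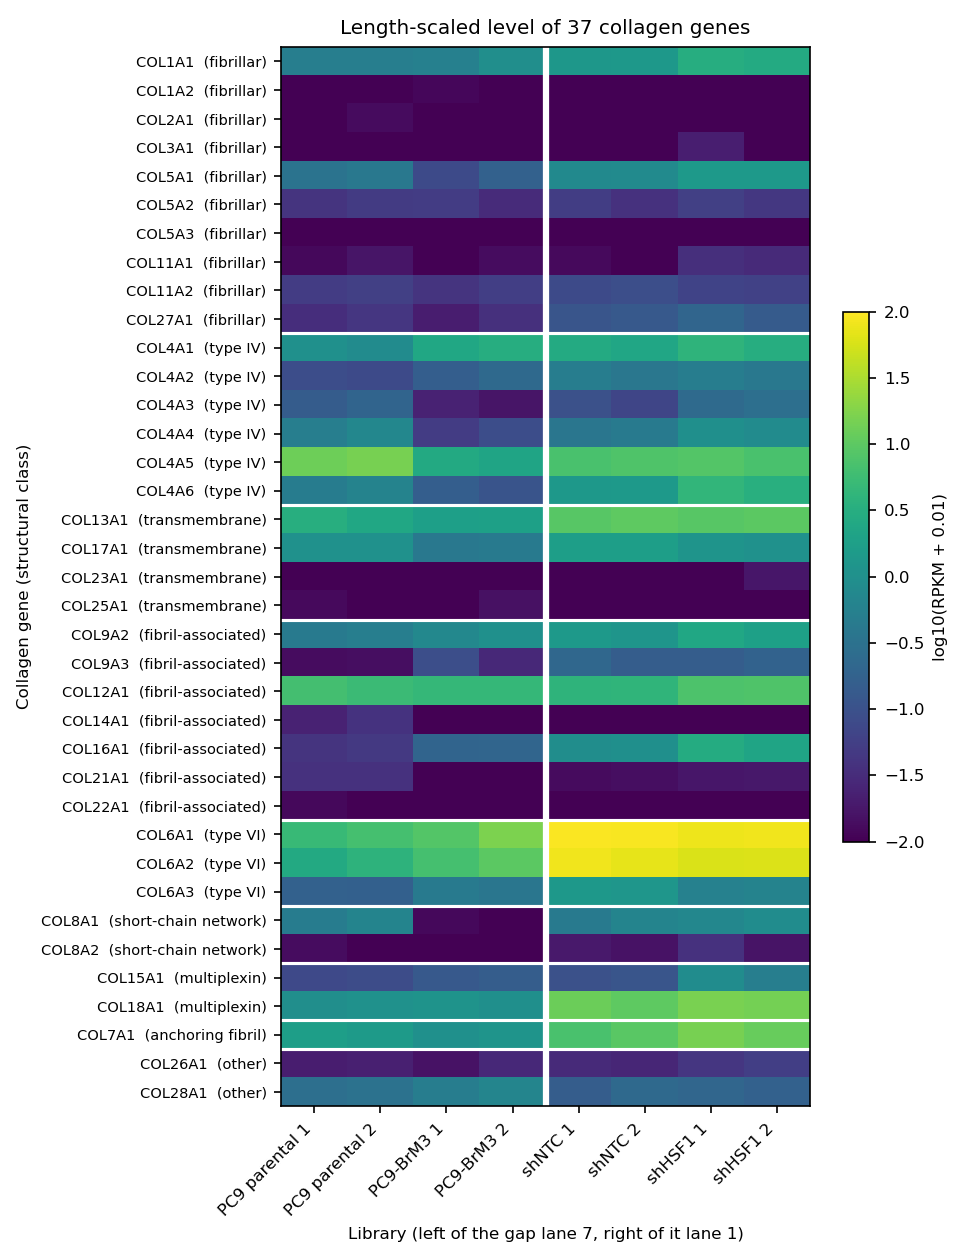
Level of each of the 37 collagen genes (rows, ordered by structural class) in each library (columns), as log10 of RPKM plus 0.01. COL6A1 and COL6A2 are the brightest rows to the right of the gap, where the transduced libraries stand, and COL4A5 is the brightest in PC9 parental; 12 rows stay near the bottom of the scale in most libraries.

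Of the 37 genes, 25 passed the low-count filter in the knockdown comparison, 24 of them in the subline comparison, and 12 in neither. Among the 12, COL5A3 had 0 counts in every library and the highest summed count of a group was 21. COL1A2, the usual partner of COL1A1 in type I collagen, had 1 count in 1 PC9-BrM3 library and 0 in the other libraries. COL3A1 had 3 counts, all in 1 shHSF1 library, and COL2A1 had 1. COL23A1 and COL25A1, both transmembrane, had 1 and 2 counts in total. COL22A1 had 1 count, while COL8A2 and COL26A1 had 0 to 5 counts per library.

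A few low genes were uneven between groups. COL14A1, a fibril-associated chain, had 7 and 13 counts in PC9 parental and 0 in the other 6 libraries, at least 5.62-fold higher in PC9 parental than in PC9-BrM3 when 3 counts over the group are allowed for a 0. COL21A1, of the same class, had 11 and 10 counts in PC9 parental, 0 in PC9-BrM3, 1 in each shNTC library and 2 in each shHSF1 library (at least 5.90-fold higher in PC9 parental than in PC9-BrM3). COL11A1, a fibrillar chain known from cartilage, had 1 count in shNTC and 14 in shHSF1, a ratio of 16.7 with a 95% counting interval of 2.54 to 706.

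In the knockdown comparison 13 of 25 tested collagen genes rose, 4 fell and 8 did not pass an adjusted p of 0.05 (edgeR quasi-likelihood test). Over all 16840 genes tested, 45.7% passed, 22.2% higher and 23.5% lower, against 68.0% of the tested collagen genes. Past 2-fold as well, 6 collagen genes rose and 1 fell, where 10.4% of all genes passed, 5.09% higher and 5.3% lower. The median log2 fold change was 0.50 over the collagen genes and 0.01 over all genes.

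In the subline comparison 4 of 24 tested collagen genes rose, 6 fell and 14 did not pass, a share of 41.7% against 7.14% of all 17372 genes (3.87% higher and 3.27% lower). All 10 were past 2-fold, as were 5.94% of all genes (3.28% higher and 2.67% lower). The median over the collagen genes was -0.18. Which genes passed here depended on the libraries: 5 passed without either PC9 parental library, 22 without PC9-BrM3 library 1 and 20 without PC9-BrM3 library 2. These shares are descriptions, since genes below the filter were not tested.

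Both comparisons called 9 genes, which is 52.9% of the 17 knockdown calls and 90.0% of the 10 subline calls. Of these, 6 went opposite ways: COL4A3, COL4A4, COL4A6 and COL8A1 were lower in PC9-BrM3 than in PC9 parental and rose with the HSF1 hairpin, while COL6A2 and COL6A3 were higher in PC9-BrM3 and fell with it. COL4A1 and COL16A1 were higher in both, and COL17A1 lower in both. The shares of all genes called in both, or in opposite directions, are not given here, so these counts are descriptions. The 2 comparisons share no library, and the knockdown starts from shNTC, not from untransduced PC9-BrM3. Across the lanes shNTC stood 7.04, 6.43 and 11.1 times higher than PC9-BrM3 for COL4A3, COL4A4 and COL4A6. For COL6A2 and COL6A3 it stood 9.27 and 3.34 times higher.

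**Figure D2:**
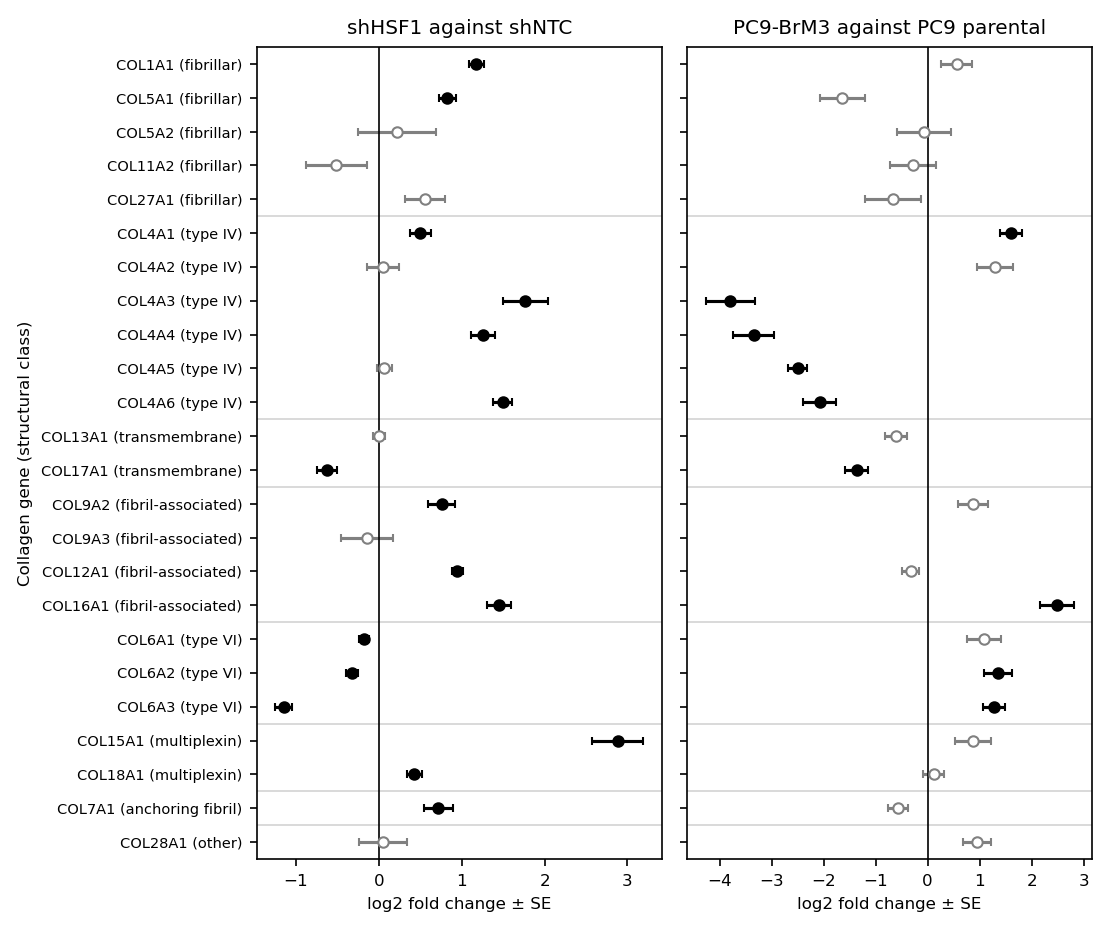
Log2 fold change (horizontal axis, bars are 1 SE) of the tested collagen genes, grouped by class, for shHSF1 against shNTC and PC9-BrM3 against PC9 parental, each from 2 against 2 libraries. Closed points passed an adjusted p of 0.05 and open points did not; the scales differ between panels, COL9A3 was tested in the knockdown only, and COL8A1 is left out because PC9-BrM3 held 1 count of it.

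Basement membrane type IV chains rose with the HSF1 hairpin in 4 of 6 cases and fell in 0, with a median log2 fold change of 0.88. In the subline comparison 4 of the 6 fell, 1 rose, and the median was -2.29. COL4A3, COL4A4 and COL4A5 chains are known to assemble into the mature network of kidney and lung basement membranes, COL4A5 and COL4A6 into another, and COL4A1 and COL4A2 into the network found in nearly all basement membranes.

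COL4A3 (chr2:228029281-228179508, plus strand, GRCh37) stood at 1.24 and 1.68 CPM in PC9 parental cells, 0.131 and 0.0601 in the PC9-BrM3 subline, 0.805 and 0.545 with shNTC, and 2.11 and 2.52 with shHSF1. Its neighbour COL4A4 (chr2:227867427-228028829, minus strand) stood at 4.99 and 6.91, 0.413 and 0.782, 3.57 and 4.11, and 9.66 and 8.33 CPM in the same order. Both genes were lowest in PC9-BrM3 and highest in shHSF1, with no overlap between the groups of either comparison. COL4A3 was 13.9-fold lower in PC9-BrM3 (log2 fold change -3.80 ± 0.48, edgeR adjusted p = 0.0137), from 158 counts in PC9 parental against 9 in PC9-BrM3. Without PC9-BrM3 library 1 its log2 fold change was -4.53. COL4A4 was 10.2-fold lower (-3.34 ± 0.39, edgeR adjusted p = 0.0113). In the knockdown COL4A3 rose 3.41-fold (1.77 ± 0.27, edgeR adjusted p = 0.000517) and COL4A4 2.39-fold (1.26 ± 0.15, edgeR adjusted p = 9.42e-05). The pair thus moved the same way in each comparison, and all 4 calls held under every alternative tried. Per length, COL4A4 was 2.90 to 6.96 times COL4A3 in the 7 libraries with more than 3 counts of each.

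COL4A5 (chrX:107683074-107940775, plus strand) stood at 112 and 130 CPM in PC9 parental cells, 23.6 and 19.1 in the PC9-BrM3 subline, 62.3 and 68.8 with shNTC, and 73.2 and 61.4 with shHSF1. It was 5.65-fold lower in PC9-BrM3 than in PC9 parental (log2 fold change -2.5 ± 0.18, edgeR adjusted p = 0.00405), a call that held under every alternative. The transduced groups overlapped (0.06 ± 0.09, edgeR adjusted p = 0.608).

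COL4A6 (chrX:107386780-107682727, minus strand), its neighbour, was at 4.60 and 6.05 CPM in PC9 parental cells, 1.48 and 0.993 in the PC9-BrM3 subline, 13.3 and 14.1 with shNTC, and 42.3 and 33.5 with shHSF1. It rose 2.82-fold with the HSF1 hairpin (1.49 ± 0.12, edgeR adjusted p = 7.82e-06), and was 4.22-fold lower in PC9-BrM3 than in PC9 parental (-2.08 ± 0.32, edgeR adjusted p = 0.0216; 0.0717 without PC9 parental library 2). Of these partners, COL4A6 alone was called in the knockdown, and the difference between them was not tested. The COL4A5 to COL4A6 ratio per length went from 5.33 and 5.56 in shNTC to 1.97 and 2.09 in shHSF1, and was 27.8 and 24.5 in PC9 parental and 18.1 and 21.9 in PC9-BrM3.

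COL4A1 (chr13:110801318-110959496, minus strand) stood at 7.81 and 6.68 CPM in PC9 parental cells, 19.2 and 24.5 in the PC9-BrM3 subline, 21.6 and 18.3 with shNTC, and 31.2 and 24.5 with shHSF1. It was the only type IV gene called higher in PC9-BrM3 (3.03-fold, log2 fold change 1.6 ± 0.21, edgeR adjusted p = 0.0156). Without PC9 parental library 1 or 2 the adjusted p was 0.0555 or 0.0784. Its rise in the knockdown was 1.42-fold (0.50 ± 0.13, edgeR adjusted p = 0.0108). That call was lost without shNTC library 2 (adjusted p = 0.0756), without shHSF1 library 1 (0.0892), and in 1 fit of all 8 libraries (0.103).

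COL4A2 (chr13:110958159-111165374, plus strand) was lower than COL4A1 throughout, at 0.620 and 0.555 CPM in PC9 parental cells, 1.17 and 1.75 in the PC9-BrM3 subline, 3.80 and 2.995 with shNTC, and 3.88 and 3.08 with shHSF1. The untransduced groups did not overlap, but the difference missed the threshold (1.30 ± 0.35, edgeR adjusted p = 0.0902). It passed in 4 of 10 alternatives and missed in 6. The passes included no count filter (adjusted p = 0.0283) and the fit of all 8 libraries (0.0188). The other passes left out 1 PC9-BrM3 library, with a log2 fold change of 1.57 without library 1 and 0.98 without library 2. The transduced groups overlapped (0.05 ± 0.19, edgeR adjusted p = 0.85). Per length, COL4A1 was 12.0 to 16.5 times COL4A2 in the untransduced libraries and 5.69 to 8.05 times in the transduced ones. Both chains stand in every library, at unequal levels.

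**Figure D3:**
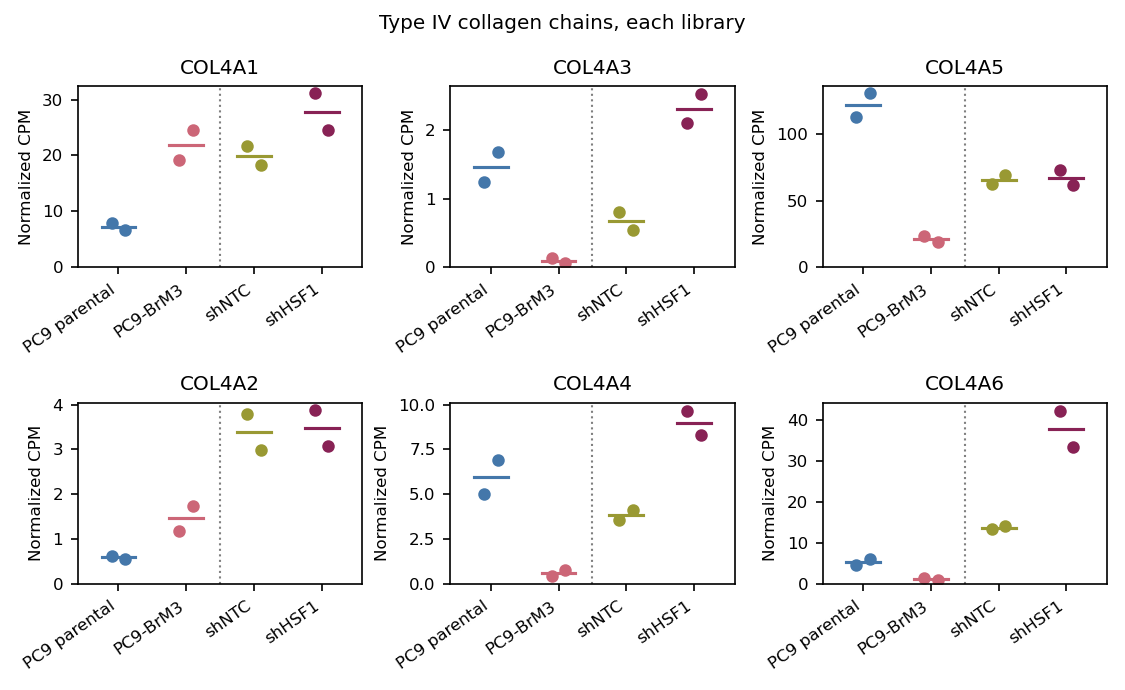
Normalized CPM (vertical axis, from 0) of the 6 type IV genes in each library, with head-to-head partners above one another. Points are libraries, short lines group means, and the dotted line separates lane 7 from lane 1. COL4A3 and COL4A4 share a low in PC9-BrM3 and a high in shHSF1, while COL4A5 overlaps between shNTC and shHSF1 and COL4A6 does not.

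Type VI collagen forms beaded microfilaments that link cells and basement membranes to the surrounding matrix, and its COL6A1, COL6A2 and COL6A3 chains assemble together. All 3 genes fell in the knockdown (median log2 fold change -0.32), and 2 of the 3 rose in the subline comparison (median 1.27). COL6A3 (chr2:238232646-238323018, minus strand) stood at 3.28 and 3.14 CPM in PC9 parental cells, 8.21 and 7.22 in the PC9-BrM3 subline, 26.6 and 25.02 with shNTC, and 10.9 and 12.0 with shHSF1. It fell 2.22-fold with the HSF1 hairpin (-1.15 ± 0.10, edgeR adjusted p = 1.52e-05), the only called fall past 2-fold among the collagen genes in that comparison. In PC9-BrM3 it was 2.42-fold higher (1.27 ± 0.22, edgeR adjusted p = 0.0287), a call lost without PC9 parental library 1 (0.287) or library 2 (0.315).

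COL6A1 (chr21:47401651-47424964, plus strand) stood at 26.7 and 35.6 CPM in PC9 parental cells, 45.4 and 86.4 in the PC9-BrM3 subline, 509 and 484 with shNTC, and 418 and 445 with shHSF1. COL6A2 (chr21:47518011-47552763, plus strand), which lies 93046 bases downstream, stood at 14.3 and 20.6, 35.7 and 53.5, 439 and 388, and 317 and 333 CPM. Neither gene overlapped between the groups of a lane, but the differences between shHSF1 and shNTC were small. COL6A1 was 1.13-fold lower (-0.18 ± 0.06, edgeR adjusted p = 0.0354) and COL6A2 1.25-fold lower (-0.32 ± 0.07, edgeR adjusted p = 0.0041). The COL6A1 call was lost with upper-quartile scaling (0.121), without shNTC library 1 (0.18) and without shHSF1 library 1 (0.223). In the fit of all 8 libraries the adjusted p was 0.653 for COL6A1 and 0.299 for COL6A2.

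COL6A2 in the subline comparison was 2.56-fold higher (1.36 ± 0.27, edgeR adjusted p = 0.0437; 0.222 without PC9 parental library 1). COL6A1 had a log2 fold change of 1.09 ± 0.33 and missed the threshold (edgeR adjusted p = 0.115), with its PC9-BrM3 libraries further apart than those of COL6A3. COL6A1 passed in 6 of 10 alternatives and missed in 4. The passes included DESeq2 (adjusted p = 0.0176), no count filter (0.00162) and the fit of all 8 libraries (0.0244). Its log2 fold change was 1.48 without PC9-BrM3 library 1 and 0.54 without library 2. COL6A1 exceeded COL6A2 per length by 1.17 to 1.88 times in every library. Against COL6A3 it stood 70.4 and 71.1 times higher per length in shNTC and 141 and 136 times in shHSF1, and these ratios did not overlap between the groups.

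Among fibrillar chains, 2 of the 5 tested rose in the knockdown and 0 fell, and 0 of 5 passed in the subline comparison. COL1A1 (chr17:48260650-48278993, minus strand), the main chain of type I collagen, stood at 4.92 and 4.86 CPM in PC9 parental cells, 5.28 and 9.08 in the PC9-BrM3 subline, 12.7 and 13.1 with shNTC, and 29.9 and 27.5 with shHSF1. It rose 2.26-fold with the HSF1 hairpin (1.18 ± 0.09, edgeR adjusted p = 8.32e-06) and held the call under every alternative. Its partner COL1A2 had 0 counts in all 4 of those libraries. COL5A1, the main chain of type V collagen, which copolymerizes with type I, was at 8.82 and 9.15 CPM in shNTC and at 15.5 and 15.8 in shHSF1 (1.77-fold higher, 0.82 ± 0.10, edgeR adjusted p = 0.000159; 0.0854 in the fit of all 8 libraries).

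For the subline, COL1A1 had a log2 fold change of 0.56 ± 0.31 (edgeR adjusted p = 0.31). COL5A1 had -1.64 ± 0.44 (edgeR adjusted p = 0.0872), with 3.65 and 4.36 CPM in PC9 parental against 0.770 and 1.83 in PC9-BrM3. Its groups did not overlap. COL5A1 passed in 6 of 10 alternatives and missed in 4. The passes included DESeq2 (adjusted p = 0.00619), no count filter (0.000124) and the fit of all 8 libraries (0.0099). Its log2 fold change was -1.12 without PC9-BrM3 library 1 and -2.38 without library 2. COL1A1 passed in 1 of 10 alternatives, without PC9-BrM3 library 1 (log2 fold change 0.9). COL5A2, COL11A2 and COL27A1 passed in neither comparison. Their knockdown log2 fold changes were 0.22 ± 0.47, -0.51 ± 0.37 and 0.56 ± 0.24, from 22 to 169 counts a group.

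Of the 4 transmembrane chains, 2 were tested. COL17A1 (chr10:105791044-105845760, minus strand), the hemidesmosomal collagen that anchors epithelial cells to the basement membrane, stood at 6.66 and 6.83 CPM in PC9 parental cells, 2.498 and 2.71 in the PC9-BrM3 subline, 11.1 and 11.2 with shNTC, and 7.48 and 6.78 with shHSF1. It fell in both comparisons: 1.54-fold in the knockdown (-0.63 ± 0.12, edgeR adjusted p = 0.00191) and 2.58-fold in PC9-BrM3 (-1.37 ± 0.22, edgeR adjusted p = 0.0246). The subline call was lost without PC9 parental library 1 (0.197) or library 2 (0.212). COL13A1 (chr10:71561644-71724031, plus strand), a cell-adhesion collagen, was at 18.6 and 14.3, 10.5 and 10.9, 53.6 and 58.7, and 53.7 and 57.0 CPM in the same order. Its shHSF1 libraries lay within the range of shNTC (0.00 ± 0.07, edgeR adjusted p = 0.965). In the subline comparison it had -0.61 ± 0.21 (edgeR adjusted p = 0.143). That difference passed in 3 of 10 alternatives, the fit of all 8 libraries (0.0191) among them, and missed in 7. The other passes were fits with 1 PC9-BrM3 library left out.

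By counts of calls, 2 of 5 fibrillar, 4 of 6 type IV and 0 of 2 transmembrane genes rose in the knockdown. Among these 3 classes only the transmembrane class, with COL17A1, had a fall. The shares of all genes tested in the knockdown were 22.2% higher and 23.5% lower. With so few genes a class, no class was tested against these shares. For the subline, type IV had 4 falls and 1 rise, transmembrane 1 fall, and fibrillar 0 calls. Over all genes 3.87% rose and 3.27% fell. COL5A1 was called lower in 6 of 10 alternatives and missed in 4. The difference between classes was not tested.

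Fibril-associated chains sit on the surface of other fibrils, and 3 of the 4 tested rose in the knockdown. COL16A1 (chr1:32117848-32169920, minus strand) stood at 0.283 and 0.345 CPM in PC9 parental cells, 1.73 and 1.77 in the PC9-BrM3 subline, 8.49 and 9.01 with shNTC, and 26.9 and 19.99 with shHSF1. It rose 2.73-fold with the HSF1 hairpin (1.45 ± 0.14, edgeR adjusted p = 3.26e-05) and was 5.58-fold higher in PC9-BrM3 than in PC9 parental (2.48 ± 0.33, edgeR adjusted p = 0.0151). The subline call was lost without PC9 parental library 1 (0.126) or library 2 (0.0633). On the scale over all 8 libraries its levels rank the groups without overlap, from PC9 parental through PC9-BrM3 and shNTC to shHSF1. The step from PC9-BrM3 to shNTC crosses the lanes, so lane, transduction, selection and doxycycline cannot be told apart in it.

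COL12A1 (chr6:75794042-75915767, minus strand), the most abundant fibril-associated chain here, was at 50.3 and 51.2 CPM in shNTC and 94.2 and 98.1 in shHSF1 (1.93-fold higher, 0.95 ± 0.06, edgeR adjusted p = 2.96e-06). In PC9 parental it was at 79.1 and 65.3 and in PC9-BrM3 at 57.2 and 57.1 (-0.33 ± 0.16, edgeR adjusted p = 0.271). That difference passed in 2 of 10 alternatives and missed in 8. Both passes were fits with 1 PC9-BrM3 library left out, whose spread comes from the PC9 parental pair. COL9A2 rose 1.69-fold in the knockdown (0.76 ± 0.16, edgeR adjusted p = 0.00374), and COL9A3, its partner in cartilage type IX collagen, did not pass (-0.14 ± 0.32, edgeR adjusted p = 0.748). COL9A3 had 2 counts in PC9 parental and 24 in PC9-BrM3, 21 of them in 1 library, a ratio of 14.2 with a 95% counting interval of 3.53 to 124.

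The multiplexins COL15A1 and COL18A1 are basement membrane collagens whose ends release endostatin and related fragments, and both rose in the knockdown. COL15A1 (chr9:101705461-101833069, plus strand) stood at 0.443 and 0.498 CPM in PC9 parental cells, 0.789 and 0.933 in the PC9-BrM3 subline, 0.578 and 0.681 with shNTC, and 5.76 and 3.34 with shHSF1. Its 7.39-fold rise was the largest among the tested collagen genes (2.89 ± 0.31, edgeR adjusted p = 5.21e-05), from 28 and 25 counts in shNTC to 224 and 119 in shHSF1. COL18A1 (chr21:46825052-46933634, plus strand) was at 7.93 and 8.77, 9.62 and 8.36, 107 and 86.9, and 131 and 126 CPM. It rose 1.34-fold (0.43 ± 0.09, edgeR adjusted p = 0.00455; 0.0634 in the fit of all 8 libraries), and its untransduced groups overlapped (0.12 ± 0.20, edgeR adjusted p = 0.744).

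COL7A1 (chr3:48601506-48632700, minus strand), which forms the anchoring fibrils beneath epithelial basement membranes, stood at 19.5 and 16.4 CPM in PC9 parental cells, 11.3 and 12.9 in the PC9-BrM3 subline, 79.8 and 104 with shNTC, and 167 and 129 with shHSF1. It rose 1.64-fold in the knockdown (0.72 ± 0.17, edgeR adjusted p = 0.0217), and the subline difference did not pass (-0.56 ± 0.19, edgeR adjusted p = 0.145). The subline difference passed in 2 of 10 alternatives, both with 1 PC9-BrM3 library left out, and missed in 8. COL28A1 passed in neither comparison, at 1.88 and 2.03 CPM in PC9 parental cells, 3.25 and 4.27 in the PC9-BrM3 subline, 0.929 and 1.47 with shNTC, and 1.31 and 1.09 with shHSF1. Its subline difference passed in 3 of 10 alternatives, the fit of all 8 libraries (adjusted p = 0.0402) among them, and missed in 7. The other passes were fits with 1 PC9-BrM3 library left out.

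COL8A1 (chr3:99357319-99518070, plus strand), a short-chain collagen of vessel walls and the cornea, was nearly absent from the untransduced libraries labelled PC9-BrM3. It had 246 and 306 counts in PC9 parental cells, 1 and 0 in the PC9-BrM3 subline, 200 and 220 with shNTC, and 252 and 297 with shHSF1. The ratio of PC9 parental to PC9-BrM3 was 465, with a 95% counting interval of 83.2 to 18415 (edgeR adjusted p = 0.00373). The shNTC libraries are PC9-BrM3 cells by label, and their levels, 4.13 and 5.99 CPM, overlapped those of PC9 parental, 4.36 and 5.86. In shHSF1 it stood at 6.48 and 8.33 CPM, 1.5-fold higher (0.58 ± 0.19, edgeR adjusted p = 0.0334), a call lost without shNTC library 1 (adjusted p = 0.23), without shHSF1 library 2 (0.202) and in the fit of all 8 libraries (0.188).

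**Figure D4:**
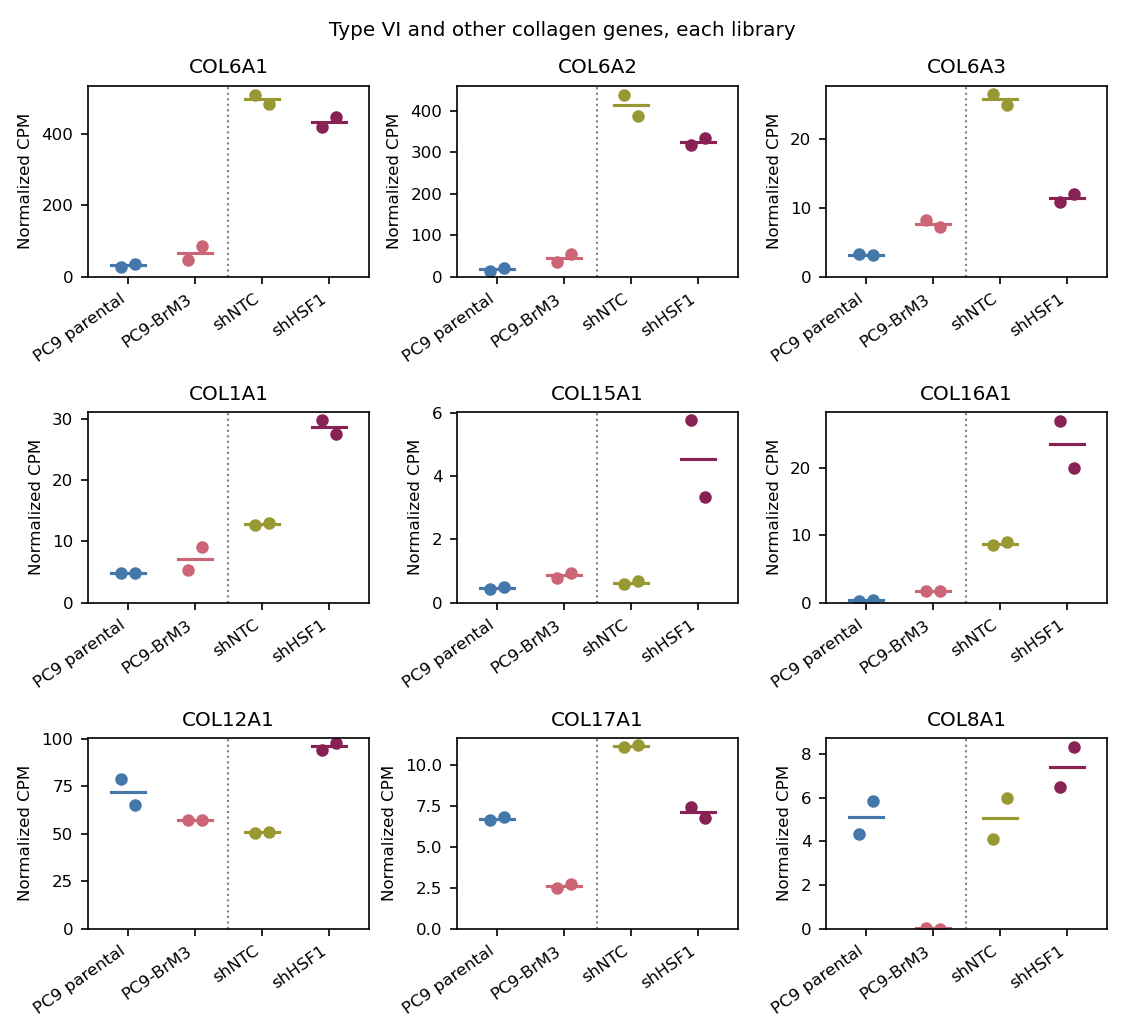
Normalized CPM (vertical axis, from 0) of the type VI genes and of 6 genes of other classes in each library; points are libraries, short lines group means, and the dotted line separates lane 7 from lane 1. The type VI genes are lower in shHSF1 than in shNTC, COL1A1, COL15A1, COL16A1 and COL12A1 are higher, and COL8A1 is near 0 only in the untransduced libraries labelled PC9-BrM3.

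Between shNTC and untransduced PC9-BrM3, lane, transduction, selection and doxycycline cannot be told apart, so values are given without a test. With at least 20 counts in both groups, 23 collagen genes could be set side by side, of which 19 were higher in shNTC. Of these, 16 were at least 2-fold higher, where 13.6% of all 15923 such genes were. The ratio of mean CPM had a median of 3.49 and ran from 0.319 for COL28A1 to 11.1 for COL4A6. COL18A1 stood 10.8 times, COL6A2 9.27 times and COL7A1 7.60 times higher in shNTC, while COL4A1 (0.913) and COL12A1 (0.888) were close to level.

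GC content moved with these ratios. Across 15554 genes the log2 ratio had a Spearman rho of 0.498 and a Pearson r of 0.532 with the GC content of the longest transcript, a correlation across genes from the same 4 libraries. Genes of 60% GC or more had a median log2 ratio of 1.32, and those under 50% had -0.21. Collagen genes are GC-rich, with a median of 60.3% over the 23, and their rho was 0.463 (r = 0.519). The 12 collagen genes of 60% GC or more had a median log2 ratio of 2.47, and the 4 under 50% had -0.01. Within lanes the correlation over all genes was weaker, with a rho of 0.128 for the knockdown and 0.110 for the subline ratio. Over collagen genes it was -0.267 for the knockdown (25 genes) and 0.312 for the subline ratio (22 genes). Collagen genes of 60% GC or more had a median subline log2 ratio of 0.55 and those under 50% had -0.24. Over all genes these subline medians were 0.17 and -0.02. For the knockdown the collagen medians stood in the other order, at 0.46 and 0.74, against 0.11 and -0.06 over all genes. The part of GC content in the collagen ratios, between or within lanes, was not tested.

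**Figure D5:**
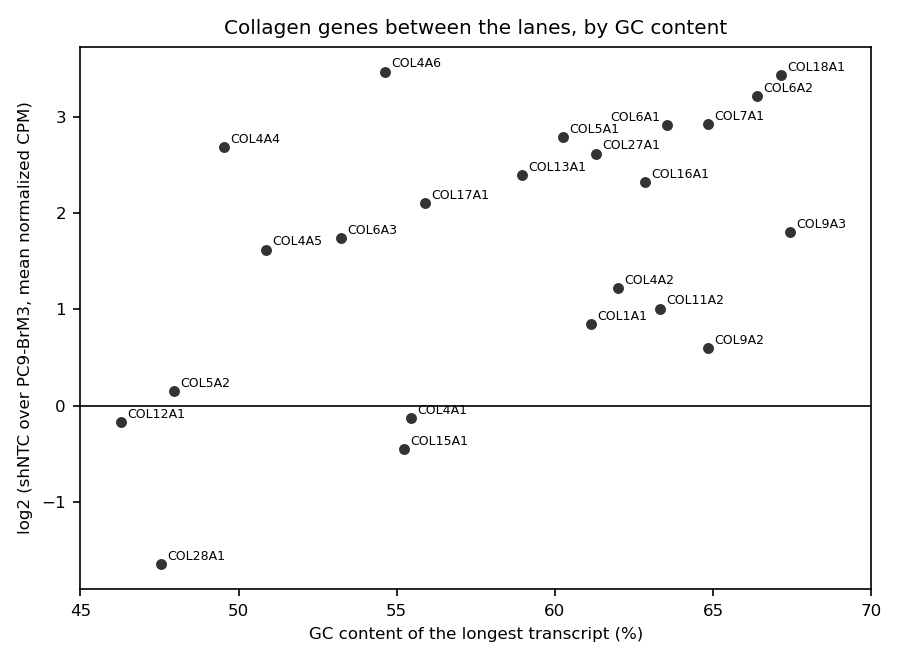
Log2 ratio of mean normalized CPM in shNTC over untransduced PC9-BrM3 (vertical axis) against GC content of the longest transcript in percent (horizontal axis) for the 23 collagen genes with at least 20 counts in both groups. Genes above the line at 0 are higher in shNTC, 19 of 23, and COL28A1, at the bottom left, has the lowest ratio (0.319).

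Genes that act on collagen chains were followed as lists. Of all genes tested, 22.2% rose and 23.5% fell in the knockdown, and 3.87% rose and 3.27% fell in the subline comparison. The counts of each list below are to be read beside these shares. Among enzymes of prolyl and lysyl hydroxylation and glycosylation, 6 of 13 tested genes rose and 4 fell in the knockdown, and 0 of 13 passed in the subline comparison (edgeR). The prolyl 3-hydroxylases P3H2 and P3H1 rose by 1.86 ± 0.10 and 1.02 ± 0.10 on the log2 scale, and the lysyl hydroxylase PLOD1 fell by 0.55. Among folding and export genes 2 of 12 rose and 4 fell in the knockdown, and 0 of 12 passed in the subline comparison. SERPINH1, the collagen chaperone and a known heat shock gene, stood at 243 and 227 CPM in shNTC and at 56.9 and 66.8 in shHSF1, 3.74-fold lower (-1.90 ± 0.08, edgeR adjusted p = 2.08e-07). In PC9 parental and PC9-BrM3 its levels overlapped, at 169 and 198 against 172 and 187 CPM (edgeR adjusted p = 0.929). In the same libraries 13 collagen genes rose, 4 fell and 8 did not pass. A link between the chaperone's transcript and the collagen genes was not tested. KLHL12, which enlarges transport vesicles for procollagen, had -0.98 ± 0.08, and the vesicle coat gene SEC23A had 0.78 ± 0.06, both called.

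Of the propeptide proteases and their partners, 3 of 8 rose and 1 fell in the knockdown, and 2 of 8 fell in PC9-BrM3. FURIN rose by 0.86 ± 0.06 in the knockdown. TLL1, a protease of the BMP1 family, was lower in the untransduced libraries labelled PC9-BrM3, from 129 and 131 counts in PC9 parental to 0 and 4. The shNTC libraries, PC9-BrM3 by label, had 62 and 55 counts, and shHSF1 had 97 and 124. TLL1 was called higher in the knockdown (1.13 ± 0.23, edgeR adjusted p = 0.00313). In the fit of all 8 libraries that adjusted p was 0.0915. Among crosslinking enzymes 2 of 7 rose and 4 fell in the knockdown, and 1 rose and 1 fell in the subline comparison. LOX, lysyl oxidase, stood at 33.0 and 34.1 CPM in PC9 parental cells, 7.49 and 8.66 in the PC9-BrM3 subline, 17.8 and 15.8 with shNTC, and 32.0 and 36.0 with shHSF1 (knockdown 1.04 ± 0.10, subline -2.05 ± 0.17). Like COL4A3, COL4A4 and COL4A6, it was called lower in PC9-BrM3 and higher in shHSF1. The related LOXL4 and LOXL1 and the transglutaminase TGM2 fell in the knockdown (-0.99 ± 0.09, -0.52 ± 0.06 and -0.57 ± 0.06).

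Among collagen receptors 1 of 9 rose and 2 fell in the knockdown, and 2 of 8 fell in the subline comparison. ITGB1, the beta subunit of the collagen-binding integrins, was at 463 and 447 CPM in shNTC and 152 and 142 in shHSF1 (-1.61 ± 0.06, edgeR adjusted p = 1.17e-07). ITGA1, an alpha subunit, was lower in both comparisons (-0.78 ± 0.13 in the knockdown, -1.95 ± 0.20 in the subline comparison). ITGA2, a more abundant alpha subunit, was the 1 rise in the knockdown, from a mean of 513 CPM in shNTC to 645 in shHSF1. Its log2 fold change was 0.35 ± 0.07 (edgeR adjusted p = 0.0032, and 0.0734 in the fit of all 8 libraries). In PC9-BrM3 it was lower (-1.01 ± 0.15, edgeR adjusted p = 0.0203). Of the enzymes that cleave collagen, 3 of 7 rose and 2 fell in the knockdown, and 1 of 6 rose and 2 fell in the subline comparison. MMP14, a membrane-bound collagenase, rose by 0.58 ± 0.08, and the interstitial collagenase MMP1 went from 46 and 62 counts in shNTC to 2 and 3 in shHSF1.

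Of the other matrix proteins that bind collagen, 3 of 6 tested rose in the knockdown and 0 fell, and 1 of 6 fell in the subline comparison. NID2, a nidogen that links type IV collagen to laminin, had 0 counts in both shNTC libraries and 40 and 29 in shHSF1, at least 27.4-fold higher against 3 counts over the group. FN1, fibronectin, had 0.30 ± 0.07 in the knockdown (edgeR adjusted p = 0.00538; 0.36 in the fit of all 8 libraries) and -1.80 ± 0.24 in the subline comparison (edgeR adjusted p = 0.0163).

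TGF-beta is a known inducer of collagen genes. Its list joins ligands, receptors, SMADs, other regulators and targets. Of its 13 tested genes, 8 rose in the knockdown and 3 fell. The subline comparison had 1 rise and 1 fall among 13. SMAD7, the inhibitory SMAD that TGF-beta itself induces, stood at 10.4 and 10.7 CPM in shNTC and 30.3 and 29.4 in shHSF1 (2.88-fold higher, 1.53 ± 0.09, edgeR adjusted p = 1.46e-06). Over all genes 22.2% rose and 23.5% fell. The ligand genes differed in direction: TGFB2 rose by 1.01 ± 0.14 and TGFB1 by 0.79 ± 0.10 (edgeR adjusted p = 0.000187; 0.184 for TGFB1 in the fit of all 8 libraries), while TGFB3 fell (-0.73 ± 0.20, edgeR adjusted p = 0.0149). The TGFB3 call was lost with DESeq2 (0.0629), without shNTC library 2 (0.0754) and without shHSF1 library 1 (0.0979). TGFB3 was also the 1 rise of the list in PC9-BrM3 (1.88 ± 0.24, edgeR adjusted p = 0.0134; 0.0676 and 0.0909 without PC9 parental library 1 or 2). The SP1 transcription factor gene fell by 0.43. SMAD3 fell as well (-0.32 ± 0.06, edgeR adjusted p = 0.00189, and 0.0536 in the fit of all 8 libraries). TGFB1 did not pass in the subline comparison (0.70 ± 0.44, edgeR adjusted p = 0.368), with 16.2 and 43.9 CPM in the 2 PC9-BrM3 libraries. These lists are given by their counts, and no test of a list was made.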

How the data were processed

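Gene counts of 8 RNA-seq libraries were analysed. The deposited values are raw counts per gene, made by the authors with featureCounts 1.6.1 over exons by Ensembl gene ID (GRCh37), reverse-stranded, per the file headers. Strand-aware counting keeps overlapping antisense genes apart. Per the submitters' processing notes, Trim Galore, HISAT2 and DESeq2 were also used, in versions not given in the sources used here. A symbol was matched to 81.9% of gene IDs; the rest held 0.656% to 0.823% of counts.

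From the counts, each comparison was fitted on its own 4 libraries with edgeR 4.0.16 under R 4.3.3, after filterByExpr with a minimum count of 10 and a minimum total of 15, with TMM factors, the robust quasi-likelihood F test and Benjamini-Hochberg adjustment over all genes tested, with a threshold of 0.05. SE is the absolute log2 fold change over the square root of F. With 2 against 2 libraries a two-sided exact permutation test cannot go below p = 0.333. The model has 2 residual degrees of freedom and borrows spread across genes. The fits were first run on simulated counts that gave each gene the same spread in both groups, and the outcome is not given here. That setting does not cover the wider spread of the PC9-BrM3 pair. CPM and RPKM were computed on 1 TMM scale over all 8 libraries. RPKM uses the files' exonic length, which merges all transcripts and so lowers the level of genes with long minor isoforms. In every group the 2 libraries differed beyond sampling noise, with a chi-square of 12.0 to 335 per degree of freedom, so none was treated as a library deposited in duplicate; this does not show separate cultures. GC content is that of the longest GENCODE v29 transcript of a gene ID, and start windows are from RefSeq (GRCh38.p14), used for sequence only.

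The members and all gene lists were chosen with earlier results of these data known. Library values were given for members called with at least a 2-fold change, for the 6 with the highest mean RPKM and for the type IV pairs; COL5A1, COL12A1 and COL28A1 were added after their values were seen. Of the other lists, up to 3 called genes in each direction by size of change could be named, and HSF1, SERPINH1, SMAD7 and TGFB1 always. Alternatives were DESeq2 1.42.0, its size factors, upper-quartile factors, no count filter, a replicate block, 1 fit of all 8 libraries, and leaving out each library.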

Additional observations from a re-analysis of the deposited data

How the results depend on the processing

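Of the 17 collagen genes called in the knockdown, 10 kept direction and call under every alternative (COL1A1, COL4A3, COL4A4, COL4A6, COL6A3, COL9A2, COL12A1, COL15A1, COL16A1 and COL17A1), as did 4 of the 10 in the subline comparison (COL4A3, COL4A4, COL4A5 and COL8A1). In 1 fit of all 8 libraries, whose spread includes the PC9-BrM3 pair, the knockdown called 3873 genes (7701 as reported), 11 collagen genes (17) and 2 of them lower (4). The subline comparison called 2147 genes with DESeq2, 3159 with no count filter, 3813 in the fit of all 8 libraries and 402 to 9228 with 1 library left out (1240 as reported). Collagen genes called there were 16 with no filter, 17 in the fit of all 8 and 5 to 22 with 1 library left out (10 as reported), of which 7, 9 and 0 to 10 were higher (4) and, with 1 library left out, 4 to 12 lower (6). All genes called fell to 402 without PC9 parental library 1 and 479 without library 2, and rose to 9228 and 5594 without PC9-BrM3 library 1 or 2. With 1 library left out, the lone library is assumed to vary like the other groups. Class medians in the knockdown then ran from 0.27 to 0.79 for fibrillar, 0.73 to 1.02 for type IV, -0.42 to -0.23 for type VI and 1.41 to 1.84 for multiplexins.

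Replicate numbers did not pair the libraries (correlation of replicate differences -0.00118 and 0.00949). With the number as a replicate block 8015 genes were called for the hairpin and 1328 for the subline; COL7A1 lost its knockdown call (adjusted p = 0.214), and COL5A1 and COL6A1 gained subline calls (0.0281 and 0.0242).

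Among the genes named, signs changed only for log2 fold changes that had not passed. With 1 library left out the knockdown ranges of these were -0.13 to 0.24 for COL4A2, -0.0714 to 0.19 for COL4A5, -0.0577 to 0.64 for COL5A2, -0.39 to 0.19 for COL9A3, -0.26 to 0.39 for COL28A1 and -0.0583 to 0.0622 for COL13A1. COL13A1 was also below 0 with DESeq2 (-0.00077), with no filter (-0.00457) and in the fit of all 8 (-0.019). The subline ranges were -0.71 to 0.27 for COL5A2, -0.15 to 0.0792 for SERPINH1 and -0.19 to 1.25 for TGFB1. The cause was not tested.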
